A study of Homo sapiens with 3 samples.

Results

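The genes described here encode inhibitors of p53 and of cyclin-dependent kinases (CDKs). They were chosen by name, and all 9 were found among the 58051 genes counted. The set holds 3 genes for inhibitors of p53 (MDM2, MDM4 and PPM1D), the CIP/KIP genes CDKN1A and CDKN1B, and the 4 INK4 genes CDKN2A, CDKN2B, CDKN2C and CDKN2D. RNA-seq of H9, an established line of human embryonic stem cells (hESC), was part of a study of replication origins, in which expression served to sort genes. The only group was wild type (WT) H9 without treatment, grown in Essential 8 Flex on vitronectin, with 3 replicates. Total RNA was depleted of ribosomal RNA, and totals of 10390984, 12024802 and 8655155 reads fell on genes in replicates 1, 2 and 3. Nothing in the labels says that the replicates came from separate cultures, so their spread may be technical. With 1 condition, no groups could be compared and no test was made.

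Levels are given as TPM, the read count divided by the summed length of a gene's exons and scaled to the same sum in each replicate. Genes are compared on this scale unless another gene length, that of the longest or of the Ensembl canonical transcript, is named. Both other lengths also change the summed ratio of counts to lengths by which every gene is divided. SESN2, with 3462 bases under all 3, thus had 0.753 and 0.604 times its level. Following the classes of the study, a mean below 0.01 TPM was taken as nonexpressed, and the remaining genes were divided into 3 equal classes. This was done over 19629 protein-coding genes, a limit chosen here. Boundaries lay at 3.35 TPM between low and medium and at 27.0 TPM between medium and high. In bulk RNA, a gene used by fewer cells cannot be told apart from a gene with less RNA in each cell. The label was checked against markers. All 8 markers of pluripotent cells were high, from 259 ± 5.40 TPM for SALL4 to 2576 ± 64.7 TPM for LIN28A (SD, n = 3). None of 4 endoderm, 4 mesoderm and 4 neural markers had a high mean, and their most abundant genes were FOXA2 at 7.54 ± 1.71 TPM, MIXL1 at 22.3 ± 5.66 TPM and TUBB3 at 7.56 ± 1.08 TPM (SD, n = 3), while NEUROG2 had no read. In replicate 1 MIXL1 had 28.1 TPM, above the boundary of the high class. Replicate 1 was also the highest for all 4 endoderm markers and for TBXT, but not for the mesoderm markers MESP1 and HAND1. With the canonical length TUBB3 had 19.9 TPM, and PAX6, another neural marker, moved from 1.74 TPM in the low class to 7.92 TPM in the medium class. None of these lineage markers was high under either other length. Of 6 fibroblast markers, THY1, a surface antigen also known on hESC, was high at 145 ± 11.2 TPM. COL1A2, a collagen gene, had 712, 791 and 659 reads and 25.6 ± 1.67 TPM, just below the high class, which it reached with the longest transcript (34.8 TPM) and the canonical transcript (33.0 TPM) as gene length. Among the other 4, which were low, DCN had 0.0985 ± 0.00830 TPM (SD, n = 3).

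p53 is a transcription factor that halts the cell cycle or starts apoptosis after DNA damage, and it induces CDKN1A as well as its own inhibitors MDM2 and PPM1D. CIP/KIP proteins bind complexes of cyclins with several CDKs, whereas INK4 proteins bind CDK4 and CDK6 and keep them from D cyclins. Embryonic stem cells are known for a short G1 phase, the stage of the cycle at which many of these inhibitors act.

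MDM2 is known for a p53-responsive promoter inside the gene, and the sequence of that region is shown for its 2 matches to the p53 consensus of 2 abutting 10-base repeats. Start sites, with 250 bases before and 50 bases after each, came from the RefSeq promoters of GRCh38.p14, in which 9 of 9 members had a window and 15 windows were found. The consensus is its own reverse complement, so both strands were read at once. The MDM2 stretch is on the plus strand of GRCh38 at chr12:68808767-68809001, in an intron between exons that end at 68808491 and start at 68809002 in GENCODE release 44, and capitals mark the 20 bases of each match.

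MDM2 internal promoter: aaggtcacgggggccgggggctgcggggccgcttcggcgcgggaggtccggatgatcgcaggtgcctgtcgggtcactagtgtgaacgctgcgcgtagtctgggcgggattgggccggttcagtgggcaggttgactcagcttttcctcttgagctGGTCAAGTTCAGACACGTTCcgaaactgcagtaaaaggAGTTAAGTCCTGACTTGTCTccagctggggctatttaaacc

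The upstream match at chr12:68808923-68808942 had 18 of 20 positions of the consensus and lay 94 bases before a start site at 68809017, which is 840 bases into the gene. The other, at chr12:68808961-68808980, had 17 of 20. A match of at least 18 positions occurred in 0.649% of 35116 RefSeq promoter windows, and a pair of separate matches of at least 17 positions in 0.202%, so this MDM2 window stood near the top of the scale. It is the best of 4 MDM2 windows, of which 2 overlap here, and those at the upstream start (chr12:68807922-68808221 and chr12:68807927-68808226) matched at 15 positions, a value that 70.5% of windows reached. Below, capitals mark the bases that match in the best site of MDM2 and of other members, to show how they differ.

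MDM2: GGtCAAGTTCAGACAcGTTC
CDKN1B: AGGCcAGCCaGAGCAgGTTT
CDKN2B: tAGCATcTTTGGGCAgGCTT
PPM1D: AAGCAAaCTaGGAgATGCgC
CDKN1A: tGGCcTGCTgGAACTcGgCC

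The sites of CDKN1B (chr12:12717137-12717156) and CDKN2B (chr9:22009442-22009461, minus strand) matched at 17 positions, a value reached by 5.20% of all windows. PPM1D (chr17:60599994-60600013) matched at 16 positions, which 26.0% of windows reached. CDKN1A (chr6:36678541-36678560), MDM4, CDKN2A and CDKN2D matched at 15, as did 70.5% of windows, and CDKN2C at 14, as did 97.4%. Apart from MDM2, CDKN1B and CDKN2B, the members thus had matches that at least 26.0% of promoters also hold. The elements through which p53 is known to act on CDKN1A lie farther upstream than the window. A match describes letters and was not measured as binding.

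**Figure D1:**
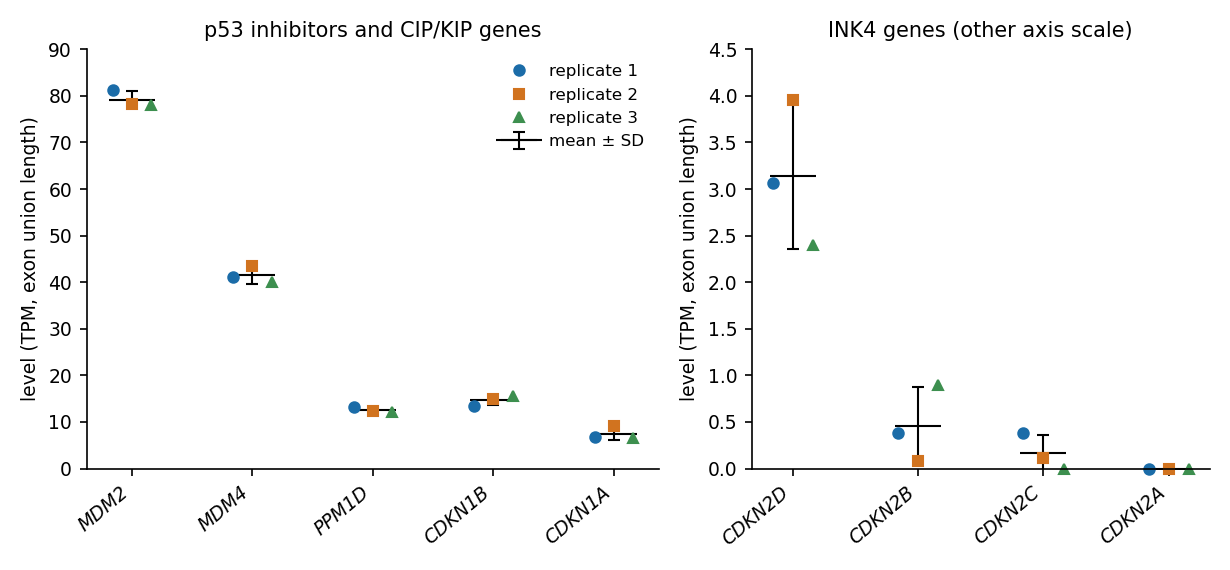
Level in TPM of the 9 genes in each of 3 H9 replicates (points), with mean ± SD (bars), on separate axis scales for the INK4 genes. MDM2 lay between 77.9 and 81.3 TPM, and CDKN2A had no read in any replicate.

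Among the inhibitors of p53, MDM2 had the highest level and PPM1D the lowest, and the replicates of the 3 genes did not overlap. MDM2 (ENSG00000135679, chromosome 12, 68808177 to 68845544) encodes the ubiquitin ligase that marks p53 for degradation. It had 1757, 1966 and 1437 reads in replicates 1, 2 and 3, or 81.3, 78.2 and 77.9 TPM, with a mean of 79.1 ± 1.84 TPM (SD, n = 3). This was the high class, and 89.2% of protein-coding genes were below it. MDM4 (ENSG00000198625, chromosome 1, 204516379 to 204558120), a relative of MDM2 that binds and masks the activation domain of p53, had 41.1, 43.5 and 39.9 TPM and a mean of 41.5 ± 1.83 TPM (SD, n = 3), from 976 to 1450 reads. It was high as well, above 79.4% of protein-coding genes. The level of MDM2 was 1.98, 1.80 and 1.95 times that of MDM4 in replicates 1, 2 and 3, and the log2 ratio of MDM4 to MDM2 was -0.93 ± 0.07 (SD, n = 3). MDM2 was therefore higher than MDM4 in each library, by more than the spread of the ratio.

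PPM1D (ENSG00000170836, chromosome 17, 60600193 to 60666280) encodes a phosphatase that removes phosphate from p53 and from checkpoint kinases. It had 324, 353 and 255 reads, or 13.2, 12.4 and 12.2 TPM, and its mean of 12.6 ± 0.542 TPM (SD, n = 3) was in the medium class. MDM2 was 6.28 ± 0.123 times as high as PPM1D (SD, n = 3), and 3.82 ± 0.0750 and 3.53 ± 0.0692 times with the longest and the canonical transcript as gene length. For MDM2 and PPM1D the coefficient of variation between replicates, 2.32% and 4.29%, was below the 2.41% and 5.67% that counting error alone gives. For MDM4 it was 4.40% against 2.88%. The replicates of MDM2 and PPM1D thus differed by no more than the sampling of reads gives.

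Part of the MDM2 value is uncertain, because 14.7% of its exon length is shared with exons of other genes. The gene ENSG00000257181, on the opposite strand, covers 785 bases of it and had 299, 294 and 231 reads, and CPM, also on the opposite strand, covers 133 bases. The overlapping pseudogene on the same strand had no read. Which tool counted the reads, with which annotation and use of strand, was not given in the sources used here, so reads of MDM2 and of its antisense partners cannot be told apart. MDM4 and PPM1D share no exonic base with another gene. Gene counts also do not separate MDM2 transcripts of the internal promoter from those of the upstream start.

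The CIP/KIP genes CDKN1B and CDKN1A were both in the medium class, and CDKN1B was the higher of them in each library. CDKN1A (ENSG00000124762, chromosome 6, 36676460 to 36687337) encodes p21, through which p53 arrests the cell cycle. It had 53, 82 and 44 reads, or 6.80, 9.04 and 6.62 TPM, and a mean of 7.49 ± 1.35 TPM (SD, n = 3), with 50.6% of protein-coding genes below it. The level of this classical p53 target thus lay near the middle of all protein-coding genes. CDKN1B (ENSG00000111276, chromosome 12, 12685498 to 12722369) encodes p27, whose amount is known to be set largely by protein turnover. It had 324, 415 and 321 reads, or 13.4, 14.8 and 15.6 TPM, and a mean of 14.6 ± 1.10 TPM (SD, n = 3). CDKN1B was 1.98, 1.64 and 2.36 times as high as CDKN1A in replicates 1, 2 and 3, and the log2 ratio was 0.98 ± 0.26 (SD, n = 3).

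CDKN1C, which encodes p57 and is the remaining CIP/KIP gene, is not among the 9 and was listed for comparison. It had 16.7, 21.99 and 26.0 TPM, with a mean of 21.6 ± 4.64 TPM (SD, n = 3). Its reads of 108, 165 and 143 varied by more than their counting error, with a coefficient of variation of 21.5% against 8.49%. A chi-square of its counts gave 6.71 per degree of freedom, and the median over 12451 protein-coding genes with at least 60 reads was 1.41. The cause was not tested. The range of CDKN1C lay above that of CDKN1B, whose highest value was 15.6 TPM, but both other gene lengths reversed their order, with means of 20.8 TPM for CDKN1C and 23.5 TPM for CDKN1B with the longest transcript and of 18.2 and 33.9 TPM with the canonical transcript.

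The size of the ratio between CDKN1B and CDKN1A depended on the gene length. The exons of CDKN1B span 9255 bases when all its transcripts are joined, 4335 bases in the longest transcript and 2411 bases in the Ensembl canonical transcript. Its mean was accordingly 14.6, 23.5 and 33.9 TPM, and the log2 ratio to CDKN1A rose from 0.98 to 1.67 and 2.42. With the canonical length CDKN1B was in the high class and, at 31.1, 34.2 and 36.4 TPM, above MDM4, which had 27.1, 28.7 and 26.5 TPM. MDM2 led the 9 genes under all 3 lengths, at 79.1, 66.0 and 52.96 TPM. CDKN1B was above CDKN1A under each length, while its order against MDM4 depended on the length.

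**Figure D2:**
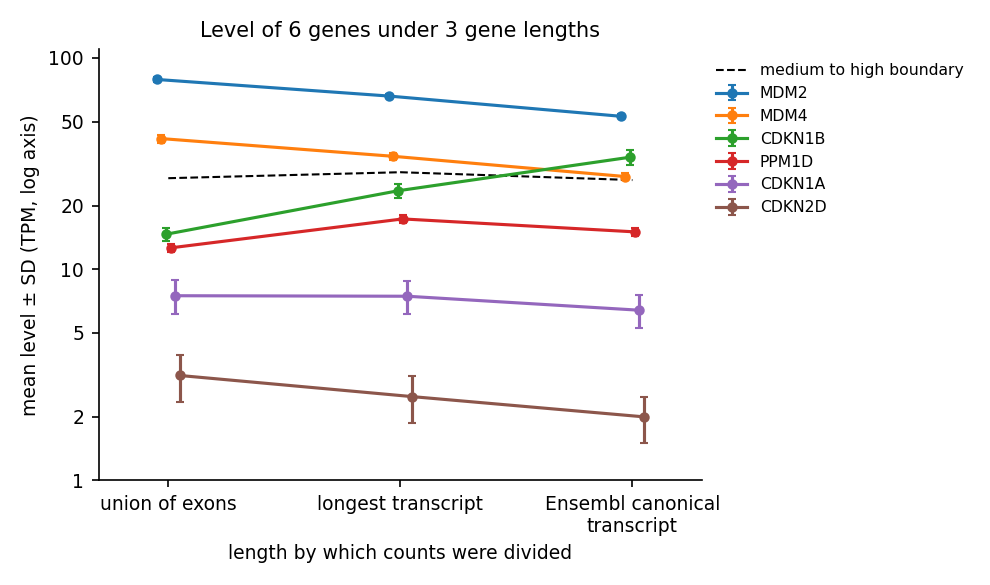
Mean level ± SD (n = 3, TPM, log axis) of 6 genes when counts were divided by the length of all exons, of the longest transcript or of the Ensembl canonical transcript, with the boundary between medium and high (dashed). CDKN1B moved from 14.6 to 33.9 TPM and crossed MDM4, while MDM2 was highest under each length.

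The INK4 genes were low or without reads, and CDKN2D gave most of their sum. CDKN2D (ENSG00000129355, chromosome 19, 10566460 to 10569059, minus strand), which encodes p19INK4d, had 12, 18 and 8 reads, or 3.06, 3.95 and 2.39 TPM. Its mean was 3.14 ± 0.781 TPM (SD, n = 3), and its sum of 38 reads had a 95% Poisson interval of 26.9 to 52.2. CDKN2D was close to the boundary of the medium class. CDKN2B (ENSG00000147883, chromosome 9, 22002903 to 22009305, minus strand), which encodes p15INK4b, had 4, 1 and 8 reads, or 0.384, 0.0826 and 0.901 TPM, with a mean of 0.456 ± 0.414 TPM (SD, n = 3). CDKN2C (ENSG00000123080, chromosome 1, 50960745 to 50974634), which encodes p18INK4c, had 3, 1 and 0 reads, or 0.382, 0.109 and 0 TPM, with a mean of 0.164 ± 0.197 TPM (SD, n = 3). Their sums of 13 and 4 reads had intervals of 6.92 to 22.2 and of 1.09 to 10.2. Such intervals cover counting error only. The mean of CDKN2B fell to 0.233 TPM without replicate 3, and that of CDKN2C was 0.0547 TPM without replicate 1, so single libraries set these levels.

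CDKN2A (ENSG00000147889, chromosome 9, 21967752 to 21995301, minus strand) had no read in any of the 3 replicates. It encodes the CDK inhibitor p16INK4a and, from another promoter and reading frame, p14ARF, which binds MDM2 and frees p53. Neither transcript could be examined apart from the other in gene counts, and a gene count of 0 leaves reads for neither. A count of 0 in a library was taken to allow up to 3 reads, which is 0.297, 0.255 and 0.348 TPM in replicates 1, 2 and 3. With the longest transcript, of 1052 bases in place of 3885, it is 0.823, 0.708 and 0.971 TPM, and with the canonical transcript of 978 bases 0.709, 0.610 and 0.838 TPM. The 95% Poisson interval used for the other INK4 genes ends at 3.69 reads for the sum of the 3 libraries. Of all protein-coding genes, 13.5% had no read in any replicate, and 1 of the 9 members was among them. At this depth, transcripts of CDKN2A were not detectable, which does not show that they were absent.

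CDKN2A and CDKN2B lie next to each other on chromosome 9 and are related in sequence. Since CDKN2A had no read, reads that fit both could have been counted for CDKN2B only or left out. Both values are uncertain to that extent. CDKN2A also shares 593 bases, or 15.3% of its exon length, with CDKN2B-AS1 on the opposite strand. CDKN2C shares 20.4% and CDKN1A 4.87% with opposite-strand genes that were not among the genes counted. Since the use of strand is not known, reads of those genes on the shared bases could have been counted for CDKN2C and CDKN1A.

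The neighborhood of CDKN2A and CDKN2B was not silent as a whole. MTAP, an enzyme gene of methionine salvage beside CDKN2A, had 1081, 1115 and 719 reads and a mean of 25.4 ± 3.14 TPM (SD, n = 3). CDKN2B-AS1, the antisense RNA of the locus, had 9, 7 and 14 reads, and DMRTA1, a transcription factor gene on the other side, had 20, 38 and 20. CDKN2A-DT, a divergent transcript, had no read. MTAP was thus in the medium class, or high with either other gene length (36.8 and 36.9 TPM). CDKN2B-AS1, DMRTA1 and CDKN2A-DT had few reads or none.

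Polycomb proteins are known repressors of this locus, and 4 of the 7 listed genes for them and their partners were high, or 57.1% against 28.8% of all protein-coding genes. RNF2 had 79.1 ± 4.44, RING1 64.4 ± 4.74, KDM2B 58.1 ± 0.849 and EZH2 40.7 ± 1.37 TPM (SD, n = 3), and EZH2 had 99.8 TPM with the canonical length. BMI1 was medium at 5.01 ± 0.540 TPM, and CBX7 and CBX8 were low at 2.11 ± 0.151 and 1.99 ± 0.377 TPM (SD, n = 3). Levels of these genes do not measure repression of CDKN2A, CDKN2B or CDKN2C.

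The 9 genes ranked in the order MDM2, MDM4, CDKN1B, PPM1D, CDKN1A, CDKN2D, CDKN2B, CDKN2C and CDKN2A. Replicate ranges of neighbors in this order did not overlap, except those of CDKN2B with CDKN2C and of CDKN2C with CDKN2A. CDKN1B was above PPM1D by 2.02 ± 1.64 TPM (SD, n = 3), in all 3 libraries but by little more than the spread. CDKN2B was above CDKN2C by 0.292 ± 0.528 TPM, less than the spread, and the canonical length reversed their means. Of the 9 genes, 2 were high, or 22.2%, against 28.8% of all protein-coding genes. A further 3 were medium, 3 were low and 1 was nonexpressed. With the canonical length 3 of 9 were high, or 33.3%, so whether the share lay below or above the background turned on 1 gene, CDKN1B.

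**Figure D3:**
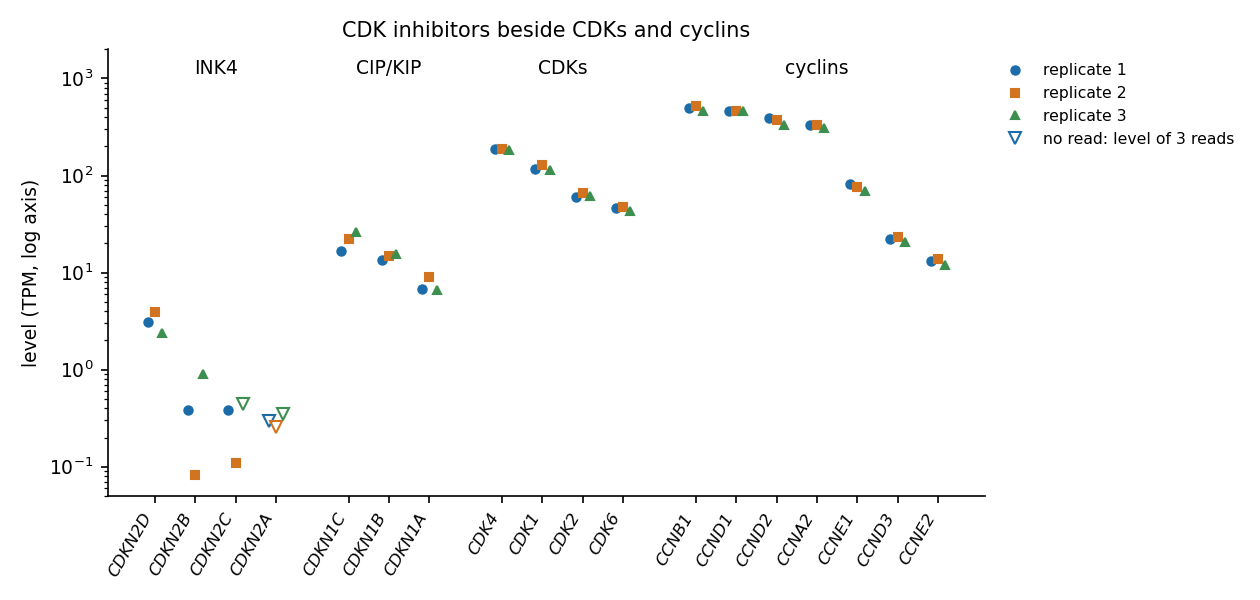
Level (TPM, log axis) of INK4, CIP/KIP, CDK and cyclin genes in 3 H9 replicates, with open triangles at the level of 3 reads where a replicate had none. CDK4, CDK6, CDK1 and CDK2 lay at 43.6 TPM or above, and the highest INK4 value was 3.95 TPM.

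The INK4 genes were set beside the kinases they bind. Summed over the 4 INK4 genes, the level was 3.83, 4.14 and 3.30 TPM in replicates 1, 2 and 3, and CDKN2D gave 82.7 ± 11.6% of it (SD, n = 3). CDK4 and CDK6 together had 233, 233 and 227 TPM, or 62.1 ± 6.36 times the INK4 sum (SD, n = 3). That sum rests mostly on the 38 reads of CDKN2D, and the factor is given for joined exons only. Its size depends on the gene length. CDK4, CDK6 and CDKN2D had 186, 45.7 and 3.14 TPM with joined exons and 232, 36.1 and 2.49 TPM with the longest transcript. With the canonical transcript they had 186, 28.9 and 2.00 TPM. CDKN1A, CDKN1B and CDKN1C summed to 43.7 ± 5.93 TPM, and CDK1 and CDK2 to 183 ± 9.89 TPM, which is 4.23 ± 0.571 times as much (SD, n = 3). RNA of the kinases therefore exceeded that of the inhibitors in each library, by a larger factor for INK4 than for CIP/KIP. The INK4 genes made up 15.9, 14.8 and 12.9% of the summed level of the 6 CDK inhibitors among the members, with a mean of 14.5 ± 1.52% (SD, n = 3). This share was 8.79% with the longest and 6.07% with the canonical transcript as gene length. The level of CDKN1B was 1.61 and 2.32 times its main value on those scales, and that of CDKN2D 0.794 and 0.637 times, near the 0.753 and 0.604 of SESN2, whose length did not change.

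Of 11 CDK and cyclin genes, 9 were high, or 81.8% against 28.8% of all protein-coding genes. The highest were CCNB1 at 490.5 ± 30.6, CCND1 at 464 ± 2.31 and CCND2 at 363 ± 30.3 TPM (SD, n = 3). CCND1 and CCND2 encode D cyclins, the partners of CDK4 and CDK6 that INK4 proteins displace, and CCND3 was medium at 22.04 ± 1.18 TPM. CCND3 reached 39.9 and 37.8 TPM, in the high class, with the longest and the canonical transcript. CCNE2, a cyclin of CDK2, was lowest at 13.0 ± 0.962 TPM, and CDK6 had 45.7 ± 1.82 TPM (SD, n = 3). Each of these 11 genes had a mean above those of CDKN1A and of all INK4 genes.

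CDKN1A and CDKN1B proteins are removed by ubiquitin ligases, and 9 of 10 genes for these ligases and their cofactors were high, beside 28.8% of all protein-coding genes. PCNA, on which p21 is known to be degraded, had 802 ± 36.4 TPM, CKS1B 177 ± 7.99 TPM and CUL1 155 ± 4.45 TPM (SD, n = 3). SKP2, the subunit that recognizes p27 together with CKS1B, had 31.3 ± 0.780 TPM and SKP1 49.2 ± 2.86 TPM. RNF123, a ligase subunit for p27 in G1, was medium at 25.6 ± 1.15 TPM (SD, n = 3). With the canonical length SKP2 had 88.3, CKS1B 320.3 and PCNA 532 TPM, and RNF123 was high at 26.9 TPM. Levels of these genes do not measure the amount of p21 or p27.

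**Figure D4:**
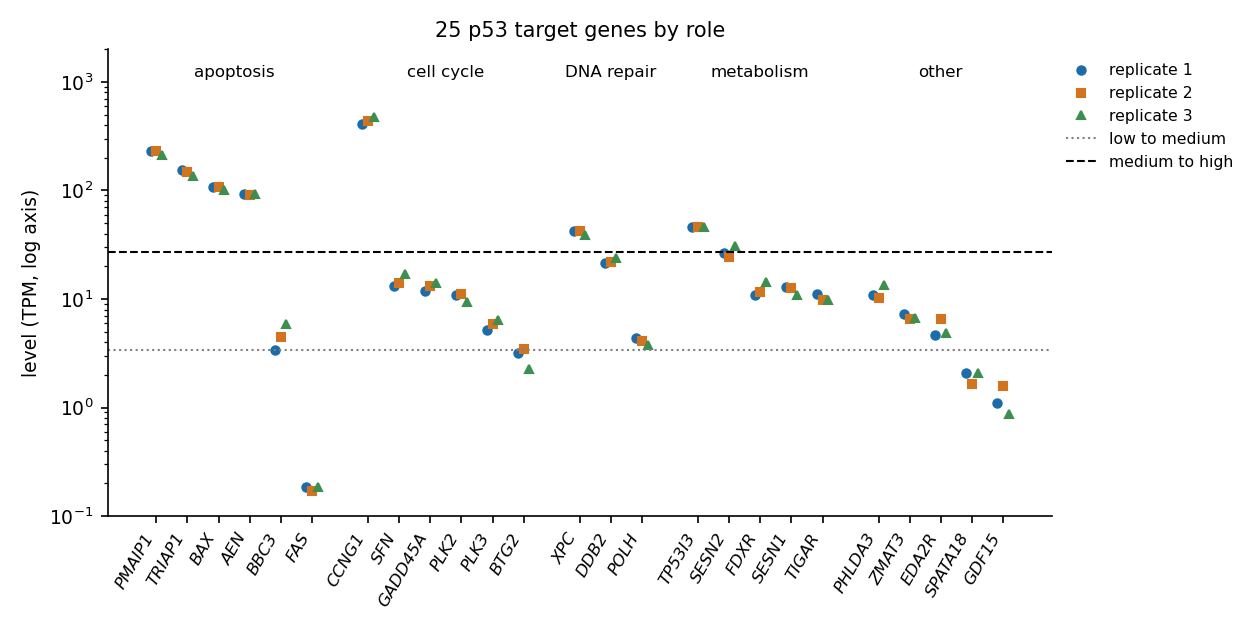
Level (TPM, log axis) of 25 p53 target genes in 3 H9 replicates, grouped by role, with the class boundaries at 3.35 (dotted) and 27.0 TPM (dashed). CCNG1 was highest at a mean of 438 TPM and FAS lowest at 0.179 TPM.

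CDKN1A, MDM2 and PPM1D are p53 targets, and 25 other targets were listed to place them. Of these, 8 were high, or 32.0% against 28.8% of all protein-coding genes, 13 were medium and 4 were low. Their median was 12.1 TPM, and that of all protein-coding genes was 7.10 TPM. The share of high genes was thus close to the background. MDM2 lay above, and CDKN1A below, the median of these targets, and PPM1D was near it.

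By role, 4 of 6 targets in apoptosis were high, 1 of 6 in the cell cycle, 1 of 3 in DNA repair, 2 of 5 in metabolism and 0 of 5 others, beside 28.8% of all protein-coding genes. The counts of high genes in DNA repair and metabolism moved with the gene length, and those of the other roles did not. DDB2, a repair gene, was high at 36.1 TPM with the canonical length, and SESN2, in metabolism, left the high class under both other lengths. POLH, also in repair, fell from medium to low under both, which changed no count of high genes. CCNG1, which encodes cyclin G1, had 405, 435 and 472 TPM, and PMAIP1, which encodes the proapoptotic protein NOXA, had 232, 229 and 211 TPM. TRIAP1 had 145 ± 8.62 and BAX 105 ± 4.30 TPM (SD, n = 3). BAX, a pore former of the mitochondrial membrane, reached 207 TPM with the canonical length. Each replicate of these 4 genes was above every replicate of CDKN1A and MDM2.

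At the other end, FAS, the gene of a death receptor, had 0.183, 0.169 and 0.184 TPM, from 12 to 15 reads. Its exons join to 29313 bases, and with the canonical transcript its mean was 0.857 TPM, still low. GDF15, a secreted factor, had 1.18 ± 0.366 TPM, SPATA18 1.94 ± 0.244 TPM and BTG2, an antiproliferative gene, 2.99 ± 0.623 TPM (SD, n = 3). SESN2 was just above the boundary of the high class at 27.1 ± 3.06 TPM and was medium under both other lengths. Targets of p53 thus covered a range from the low to the high class in untreated H9, as did the members CDKN1A, PPM1D and MDM2 between medium and high.

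Of 16 genes that act on p53 or on MDM2, 14 were high, or 87.5% against 28.8% of all protein-coding genes. RPL11 and RPL5, ribosomal proteins known to bind and restrain MDM2, had 861 ± 60.5 and 785 ± 29.6 TPM, and NPM1, which binds p14ARF, had 796 ± 42.8 TPM (SD, n = 3). Genes of this kind have many processed pseudogenes, and part of their reads may have been assigned to such copies, or the reverse. With the canonical length NPM1 had 3025, RPL5 1699 and RPL11 1358 TPM. The kinase genes ATM and ATR, which signal DNA damage to p53, were medium at 10.1 ± 0.751 and 7.53 ± 0.605 TPM, and RCHY1, a ubiquitin ligase for p53, was high at 27.2 ± 1.71 TPM (SD, n = 3). RCHY1 was medium at 23.6 TPM with the canonical length. ATM and ATR were below MDM2 and MDM4 under all 3 lengths, at 22.7 and 18.9 TPM with the longest and 18.5 and 15.2 TPM with the canonical transcript. Their order against PPM1D depended on the length, since PPM1D was above both with joined exons and had 17.3 and 15.0 TPM on the other scales. With the canonical transcript, however, ATR was above PPM1D in replicate 1 only, at 16.5 against 15.7 TPM. Their means on that scale therefore set no clear order.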

How the data were processed

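Reads were trimmed with Trim Galore 0.4.4 and aligned to GRCh38 with TopHat2 2.1.1 by the authors, who deposited whole-number counts per gene for each of 3 H9 libraries. Their Cufflinks 2.2.1 values were not used here. Counts were joined by Ensembl identifier to GENCODE release 44 (98.1% matched, 1103 did not), and TPM was computed from the union of exons and averaged over replicates. Members, gene lists and alternatives were chosen with earlier results of these data known. Beside the 9 members, the rule allowed to name the 3 highest and 3 lowest genes of a list, or any of a list of up to 8, with p53 targets listed by role. Which genes were named within this was chosen after their values were seen. CDK4, CDK1 and CDK2, used in sums, and the other CDK and cyclin genes drawn were outside the rule. Intervals are 95% Poisson intervals. The class step was also run on counts simulated with Poisson error only. Those have less spread than the real counts, so the run does not show how stable the classes are. Alternatives were other gene lengths, CPM, thresholds of 0.1 and 1 TPM, all genes, filterByExpr and TMM of edgeR 4.0.16, DESeq2 1.42.0 size factors, a pseudocount of 1 TPM, the median, no mitochondrial genes, counts thinned to 10% (11 draws) and each replicate left out. Software was R 4.3.3, matplotlib 3.10.9, scipy 1.17.1, pandas 2.3.3, numpy 2.4.6 and Python 3.11.15.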

Additional observations from a re-analysis of the deposited data

How the results depend on the processing

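With classes set over all genes, most of which are not protein-coding and lower the boundaries, 4 members and 16 of 25 p53 targets were high. Lower boundaries also raise the share of all protein-coding genes that are high, 28.8% in the main setting. The raised share is not given here, so the higher counts cannot be set against a background. Under the other alternatives run for these counts, 2 or 3 members and 6 to 8 targets were high. The log2 ratio of MDM4 to MDM2, -0.93 with TPM, was -0.52 with CPM, which does not divide by length. The log2 ratio of CDKN1B to CDKN1A, 0.98, was 1.67 with the longest transcript, 2.42 with the canonical transcript and 2.61 with CPM, and the INK4 share, 14.5%, was 8.79%, 6.07% and 4.29%. Neither of these log2 ratios changed sign, whereas CDKN1B against CDKN1C did under both other lengths. Of the 9 member means, the canonical length moved 5 by more than their SD (2 up, 3 down), the longest transcript 4 (2 up, 2 down) and leaving out mitochondrial genes 1 (up). TMM, DESeq2 factors and thinning moved none. These counts include the factor by which a changed sum scales every gene, and depend on the size of each SD, so they do not show which genes are sensitive. Without replicate 1, 2 or 3 the log2 ratios lay between -0.97 and -0.91 and between 0.85 and 1.11. CDKN2B, CDKN2C and CDKN2D, with 4 to 38 reads in all, are limited by depth. No paired analysis was possible because all libraries belong to 1 group.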

Other observations

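The 3 libraries differed beyond counting error for some genes beside the members. Among all listed genes, the chi-square per degree of freedom was highest for CCND2 (34.85), the pluripotency marker SOX2 (34.57) and NPM1 (30.81). The coefficient of variation was 5.38% for NPM1 but 21.5% for CDKN1C, which had a chi-square of 6.71 per degree of freedom. At a given relative spread this chi-square grows with the number of reads, so its order partly follows abundance. CCNG1 gave 25.04, from 3268, 4079 and 3241 reads, and MTAP gave 11.2, from 28.6, 25.4 and 22.3 TPM in replicates 1, 2 and 3. Among the members, CDKN2B had the highest value, 4.28 on 13 reads, followed by CDKN1B at 2.47 and CDKN1A at 1.91, while MDM2 had 0.524 and PPM1D 0.365.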
